A study of Rattus norvegicus with 7 samples.

Results

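Acetylated regions of S16 Schwann cells that held YY1 and lay at SREBP1 sites of sciatic nerve, but held neither of the nuclear receptors NR2F2 and RXRG, are described here. A region is a peak of H3K27ac, histone H3 acetylated at lysine 27, a mark of active promoters and enhancers. A region was taken when it shared at least 1 bp with a YY1 peak and with an SREBP1 peak and shared no base with an NR2F2 or RXRG peak. TEAD1 could be present or absent. Of the 99514 H3K27ac peaks outside the mitochondrial genome, 4543 (4.57%) met this rule. They are called receptor-free regions below, and all lay on placed chromosomes.

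The 7 samples are from rat. S16 is an immortalised rat Schwann cell line, labelled untreated, in which NR2F2, YY1, RXRG and TEAD1 were mapped by CUT&RUN and H3K27ac by ChIP-seq. SREBP1 was mapped by ChIP-seq in wild type sciatic nerve at postnatal day 15, with an input library for which no peak list was analysed here. Each target had 1 library, the nerve and the cell line are different sources, and the assays are not alike in fragment size or background. The S16 samples are all of 1 cell line, and the sources used here do not say whether nerves were pooled. A region with an SREBP1 peak therefore means a region acetylated in S16 that coincides with a nerve site, and not SREBP1 bound in S16. The antibody, the assay and the tissue change together between SREBP1 and the other factors, and cannot be told apart. The YY1 list held 38704 peaks, SREBP1 29435, NR2F2 41812, RXRG 47935 and TEAD1 26404. Read depth is unknown. No test over samples was possible, so differences carry no p. The 95% intervals given below cover counting error over regions only, not the spread between cultures or animals.

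YY1 is a zinc finger protein that can activate or repress transcription, and Schwann cells need it to myelinate. SREBP1 is a membrane-bound basic helix-loop-helix protein that is released by cleavage and turns on genes of fatty acid synthesis, whose products go into the myelin sheath. NR2F2 (COUP-TFII) is an orphan nuclear receptor, and RXRG is a retinoid X receptor, a class that pairs with many other nuclear receptors. TEAD1 binds DNA for the coactivators YAP and TAZ, which Schwann cells also need for myelination. Regions are named by position on build rn5, counted from 1. Gene names and sequences are not given, because no annotation or genome of that build was used here.

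The receptor-free regions were a large minority of the acetylated regions with YY1 and SREBP1. There were 11730 regions with both factors, of which 4543 or 38.7% (95% Wilson interval 37.9 to 39.6%) held neither receptor. Of the other 7187, 2450 held NR2F2 without RXRG, 1131 held RXRG without NR2F2, and 3606 held both. Among all H3K27ac peaks, 66.9% held neither receptor. Of the 30711 with YY1, 13753 held neither, and of the 14916 with SREBP1, 7355 held neither. The rule fixed these counts, which are given as a description. With YY1 peaks wider than their median alone, 2638 regions met the rule. The receptor-free regions contained 4897 distinct YY1 peaks, 12.7% of that list, and 4580 distinct SREBP1 peaks, 15.6% of that list. None of these peaks reached into another H3K27ac peak, so that no pair of regions owed its place to the same factor peak. Adjacent H3K27ac peaks in the deposited list were never closer than 925 bp.

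A single site of each factor was the usual arrangement. One YY1 peak was present in 4207 of the 4543 regions, 2 in 319, 3 in 16 and 4 in 1. One SREBP1 peak was present in 4506 regions and 2 in 37. A stricter overlap removed a modest part of the regions: 3879 met the rule when 50% of the shorter peak had to overlap, and 3838 when the factor's midpoint had to lie in the region. Overlaps of a few bases were rare. The largest SREBP1 overlap was under 50 bp in 107 regions, with a smallest value of 1 bp, and the largest YY1 overlap was under 50 bp in 16, with a smallest value of 4 bp. An NR2F2 or RXRG peak lay within 100 bp outside 19 regions, the nearest at 1 bp. On the other side, 13 of the 7187 regions with a receptor had it by an overlap of under 50 bp, the smallest 3 bp.

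TEAD1 divided the receptor-free regions almost evenly. A TEAD1 peak was present in 2290 of 4543, or 50.4% (49.0 to 51.9%), against 19.0% of all H3K27ac peaks and 53.7% of all H3K27ac peaks with YY1. The share thus lay far above the background of acetylated chromatin and slightly below that of YY1 regions in general. Of the 9210 regions with YY1 but without SREBP1 or a receptor, 47.2% (46.2 to 48.2%) held TEAD1. Of the 2812 with SREBP1 but without YY1 or a receptor, 8.64% (7.66 to 9.74%) did. The receptor-free regions with both factors exceeded the latter by 41.8 percentage points (Newcombe interval 39.9 to 43.5) and the YY1 regions without SREBP1 by 3.21 points (1.43 to 4.98). The presence of YY1 therefore went with a large difference in TEAD1 and the presence of nerve SREBP1 with a small one. The small one changed sign, to -3.57 points (-5.30 to -1.84), when the sets were weighted alike in YY1 width, as described below. TEAD1 and YY1 come from the same assay in the same cells, and SREBP1 from ChIP-seq in nerve. The 2 sizes are therefore not directly comparable.

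TEAD1 was more frequent than in the receptor-free regions where NR2F2 was present, with or without RXRG, and less frequent where RXRG was the only receptor. Where YY1 and SREBP1 were joined by NR2F2 alone, TEAD1 was present in 70.0% of regions (68.2 to 71.8%), and with NR2F2 and RXRG in 70.6% (69.1 to 72.0%). Where they were joined by RXRG alone it was present in 43.4% (40.6 to 46.3%), which is below the receptor-free regions. The receptor-free share minus the share with NR2F2 alone was -19.6 points (-21.9 to -17.2). Minus the share with RXRG alone it was 6.99 points (3.74 to 10.2). Over all regions with a receptor, TEAD1 was in 66.1%, and the difference was -15.7 points (-17.5 to -13.9).

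**Figure D1:**
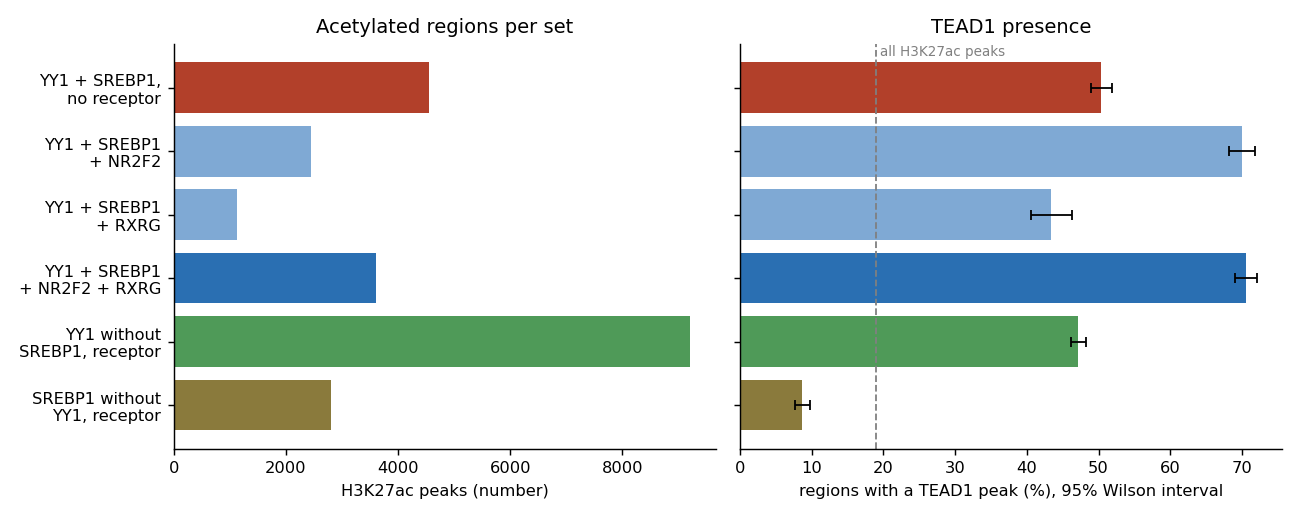
Left, the number of H3K27ac peaks in each set of acetylated regions (bars). Right, the share of each set with a TEAD1 peak in percent, with 95% Wilson intervals as error bars and the share of all H3K27ac peaks (19.0%) as a dashed line. The receptor-free regions with YY1 and SREBP1 (50.4%) lie between those joined by RXRG alone (43.4%) and those joined by NR2F2 (70.0%).

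YY1 peaks were narrower in the receptor-free regions than where a receptor was present. The widest YY1 peak of a region ran from 178 to 1950 bp, with a median of 494 bp (order-statistic interval 484 to 505 bp). The median was 729 bp (722 to 737 bp) where a receptor was present, 674 bp with NR2F2 alone, 629 bp with RXRG alone and 804 bp with both receptors. In YY1 regions without SREBP1 or a receptor it was 389 bp (382 to 397 bp). Over all acetylated YY1 regions without a receptor it was 423 bp, and over all acetylated regions with YY1 512 bp. The H3K27ac peaks themselves differed much less. Their width in the receptor-free regions went from 231 to 6578 bp with a median of 1270 bp (1238 to 1293 bp), against 1301 bp (1283 to 1317 bp) with a receptor and 1223 bp (1204 to 1244 bp) for YY1 without SREBP1 or a receptor. The median over all H3K27ac peaks was 737 bp. The share of regions without a receptor was 79.2% (76.3 to 81.8%) where the widest YY1 peak was at most 265 bp and 21.2% (20.2 to 22.3%) where it was over 671 bp. The bounds of these classes, 265, 439 and 671 bp, are the quartiles of the YY1 list. A receptor was counted by overlap with the H3K27ac peak, not with the YY1 peak. By H3K27ac width, the share without a receptor was 81.6% up to 367 bp, then 50.8%, 35.3% and, over 1233 bp, 37.5%. The cause of the trend with YY1 width was not tested.

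TEAD1 followed the width of the YY1 peak inside the receptor-free regions. It was present in 27.3% (24.1 to 30.8%) of those in the narrowest class of YY1 width, then in 41.4%, 53.7% and, in the widest class, 69.5% (66.8 to 72.1%). By width of the H3K27ac peak, with bounds at 367, 737 and 1233 bp, the shares were 33.3%, 29.0%, 37.8% and 64.9%. Receptor-free regions with TEAD1 had a median H3K27ac width of 1558.5 bp against 1035 bp without it, and a median YY1 width of 571 against 418 bp.

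The comparisons of TEAD1 between sets changed with YY1 width to different degrees. With the other set weighted to the receptor-free regions over the 4 classes of YY1 width, a setting chosen after the data were seen, the difference from regions with a receptor shrank from -15.7 to -4.14 points (normal interval -6.29 to -2.00). The difference from YY1 regions without SREBP1 changed sign, from 3.21 to -3.57 points (-5.30 to -1.84). With H3K27ac width weighted instead, the 2 differences were -14.7 and 2.00 points. With YY1 peaks wider than their median alone, they were -8.86 and -4.90 points. The difference from YY1 regions without SREBP1 was 6.92 points when 50% of the shorter peak had to overlap and 7.18 points when the factor's midpoint had to lie in the region, so that its sign was set by the processing. The contrast between the receptors persisted under YY1 width: -10.1 points (-13.0 to -7.12) against NR2F2 alone and 13.3 points (10.04 to 16.6) against RXRG alone. Thus TEAD1 was less frequent in the receptor-free regions than where NR2F2 was present, and more frequent than where RXRG was the only receptor, with or without this weighting.

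**Figure D2:**
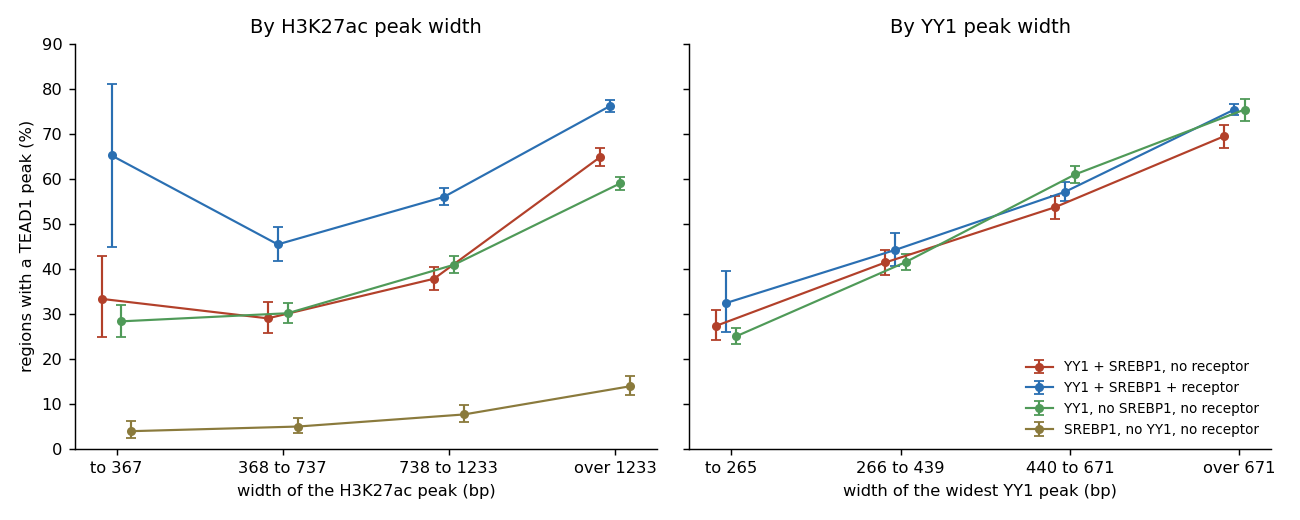
Share of regions with a TEAD1 peak in percent (points, with 95% Wilson intervals) in 4 classes of H3K27ac peak width (left) and of the widest YY1 peak (right), both in bp. Colours mark the sets; SREBP1 regions without YY1 appear only on the left. By YY1 width, the receptor-free regions go from 27.3% to 69.5%, and in the widest class they lie below the other sets with YY1. The narrowest H3K27ac class with a receptor holds 23 regions.

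TEAD1, where present in the receptor-free regions, mostly overlapped the YY1 peak. This placement was measured in these regions only, so whether it is particular to them is not known. In the 2290 receptor-free regions with TEAD1, the TEAD1 peak overlapped the YY1 peak in 94.7% (93.7 to 95.5%) and the SREBP1 peak in 78.2% (76.5 to 79.9%), and 76.2% had it on both. The median distance between midpoints was 84 bp (78.5 to 88.5 bp) from TEAD1 to YY1 and 220.5 bp (210 to 230 bp) from TEAD1 to SREBP1. Where a region held several peaks, the closest pair of YY1 and SREBP1 peaks and the TEAD1 peak closest to that YY1 peak were used, which favours YY1 in the 114 regions with more than 1 TEAD1 peak. The TEAD1 midpoint was nearer to YY1 than to SREBP1 in 73.8% of regions (72.0 to 75.6%). TEAD1 and YY1 come from the same assay in the same cells, whereas SREBP1 comes from ChIP-seq in nerve with peaks of a fixed 485 bp, and the part of these differences in the distances was not tested.

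YY1 and SREBP1 peaks met each other directly in most receptor-free regions, as they did in acetylated regions with both factors in general. The rule did not ask for this overlap. In 3898 of 4543, or 85.8% (84.8 to 86.8%), a YY1 and an SREBP1 peak shared at least 1 bp inside the region. Over all acetylated regions with both factors the share was 89.1%, and with a receptor 91.2% (90.6 to 91.9%). The difference from regions with a receptor was -5.43 points (-6.65 to -4.24), and 0.244 points (-1.45 to 1.93) with the classes of YY1 width weighted alike, an interval that holds 0. It was -1.30 points with the wider YY1 peaks alone. These pooled values join unlike sets. The share was 93.5% with NR2F2 alone, 84.7% with RXRG alone and 91.7% with both receptors. With YY1 width weighted, the differences were -2.62 points (-4.93 to -0.303) from NR2F2 alone and 4.52 points (1.65 to 7.40) from RXRG alone. From regions with both receptors the weighted difference was 1.10 points (-1.74 to 3.93). Among receptor-free regions, direct overlap was more frequent with TEAD1 (87.8%) than without it (83.8%), by 3.97 points (1.94 to 6.01). By width of the H3K27ac peak it was 98.0% in the narrowest class, then 92.2%, 89.7% and, in the widest, 81.1%. With the classes of H3K27ac width weighted alike, the difference from all regions with a receptor was -5.72 points (-6.91 to -4.52). Why the overlap varied with these widths was not tested.

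The midpoints of YY1 and SREBP1 were usually a short way apart. Their distance in the receptor-free regions went from 0 to 3053 bp, with a median of 211.5 bp (203.5 to 218.5 bp). It was at most 100 bp in 24.2% of regions and over 500 bp in 12.7%. With a receptor the median was 263.5 bp (256 to 270 bp), with 17.8% over 500 bp. The regions with a receptor were not alike in this. NR2F2 alone gave 207.5 bp (197.5 to 219 bp), an interval that overlaps that of the receptor-free regions, against 279.5 bp with RXRG alone and 300.75 bp with both receptors. SREBP1 lay at the higher coordinate in 47.7% (46.2 to 49.1%) of the receptor-free regions.

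YY1 marked the middle of the region more closely than SREBP1 did. The median distance from the centre of the H3K27ac peak was 178 bp (171.5 to 185.5 bp) for the YY1 midpoint and 283.5 bp (274 to 292 bp) for the SREBP1 midpoint, and YY1 was the nearer in 64.1% of regions (62.7 to 65.5%). With a receptor the contrast was larger: 127 bp for YY1, 359.5 bp for SREBP1, and YY1 the nearer in 77.0%. With both receptors YY1 was the nearer in 82.4%, with RXRG alone in 75.6% and with NR2F2 alone in 69.8%. NR2F2 alone gave medians of 152.5 bp for YY1 and 299 bp for SREBP1. H3K27ac and YY1 were mapped in the same cells and SREBP1 in nerve, and the part of this in the placement was not tested. The SREBP1 peak lay wholly inside 59.2% of the receptor-free regions, and its midpoint lay inside 85.1%. For YY1 these shares were 78.1% and 96.4%. SREBP1 was on the same side of the centre as YY1 in 70.2% of regions (68.9 to 71.5%), close to the 71.2% over all acetylated regions with both factors.

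**Figure D3:**
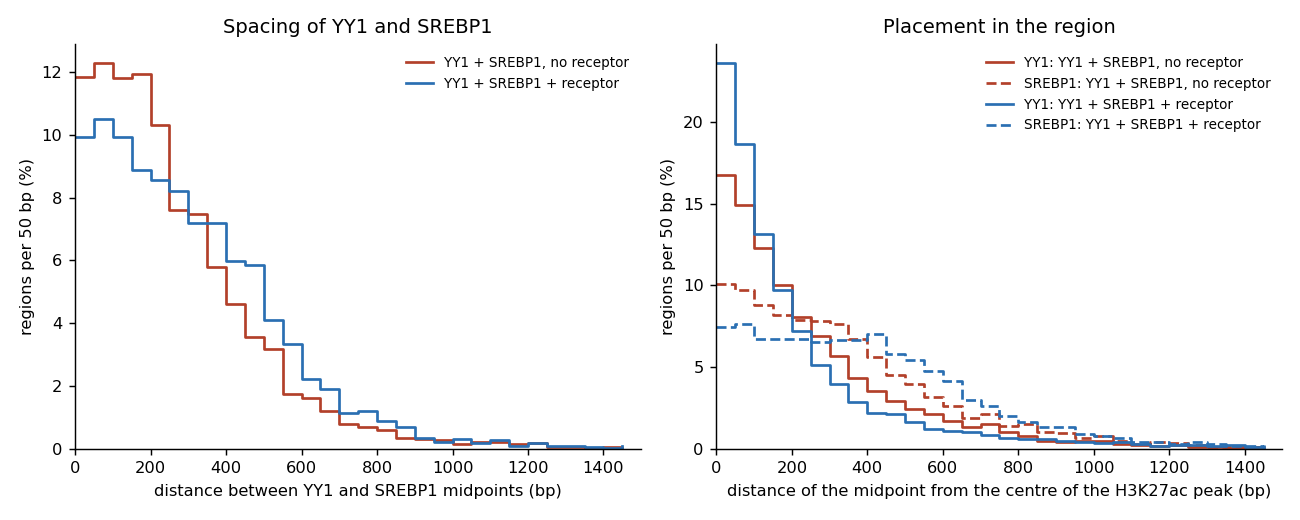
Left, distances between YY1 and SREBP1 midpoints in bins of 50 bp, as a percentage of the receptor-free regions and of the regions with a receptor. Right, distances of each midpoint from the centre of the H3K27ac peak, with YY1 as solid and SREBP1 as dashed lines. The receptor-free regions have the shorter spacing (median 211.5 against 263.5 bp), and in both sets YY1 lies nearer the centre than SREBP1. The few longest distances are beyond the axes.

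Each SREBP1 peak carries a name with a number, which the sources used here do not explain. The score is 1 in every peak. The peaks of each chromosome were put in order of this number and divided into 4 equal parts. The receptor-free regions leaned to low numbers, but less than regions with a receptor. In 1736 of 4543, or 38.2% (36.8 to 39.6%), the lowest-numbered SREBP1 peak came from the lowest part, then 28.8%, 20.0% and 13.0% in the parts above. The lowest part held 41.3% of all acetylated regions with SREBP1, 56.6% (55.5 to 57.8%) of those with YY1 and a receptor, and 10.8% (9.75 to 12.0%) of those without YY1 or a receptor. The difference between receptor-free regions and those with a receptor was -18.4 points (-20.2 to -16.6), and -9.47 points (-11.6 to -7.38) with YY1 width weighted.

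Among acetylated regions with YY1 and SREBP1, the share without a receptor rose with the SREBP1 number. It was 29.9% (28.7 to 31.1%) in the lowest part, 42.2% and 51.4% in the next ones, and 55.8% (52.8 to 58.8%) in the highest. The share of all acetylated SREBP1 regions that were receptor-free with YY1 changed little, between 28.2% and 32.9%, while the share without YY1 or a receptor went from 4.95% to 39.8%.

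The number also went with YY1 inside the receptor-free regions, and not visibly with TEAD1. The median YY1 width was 562 bp (544 to 575 bp) in the lowest part and 426 bp (399 to 463 bp) in the highest. Direct overlap of YY1 and SREBP1 went from 92.9% to 76.5%, and the midpoint distance from 170.75 to 259 bp. These trends were not particular to the receptor-free regions. In regions with a receptor, YY1 width went from 765 to 625 bp, direct overlap from 96.4% to 76.1% and the distance from 218.5 to 365 bp. TEAD1 was present in 49.7% (47.3 to 52.0%) of receptor-free regions in the lowest part and in 47.6% (43.6 to 51.7%) in the highest, intervals that overlap. With a receptor, TEAD1 went from 70.4% (68.9 to 71.8%) to 58.6% (54.1 to 63.0%). The H3K27ac peak was narrowest in the lowest part of the receptor-free regions, at 1132 bp against 1378 bp in the highest. The same held with a receptor, at 1270.5 against 1389 bp.

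**Figure D4:**
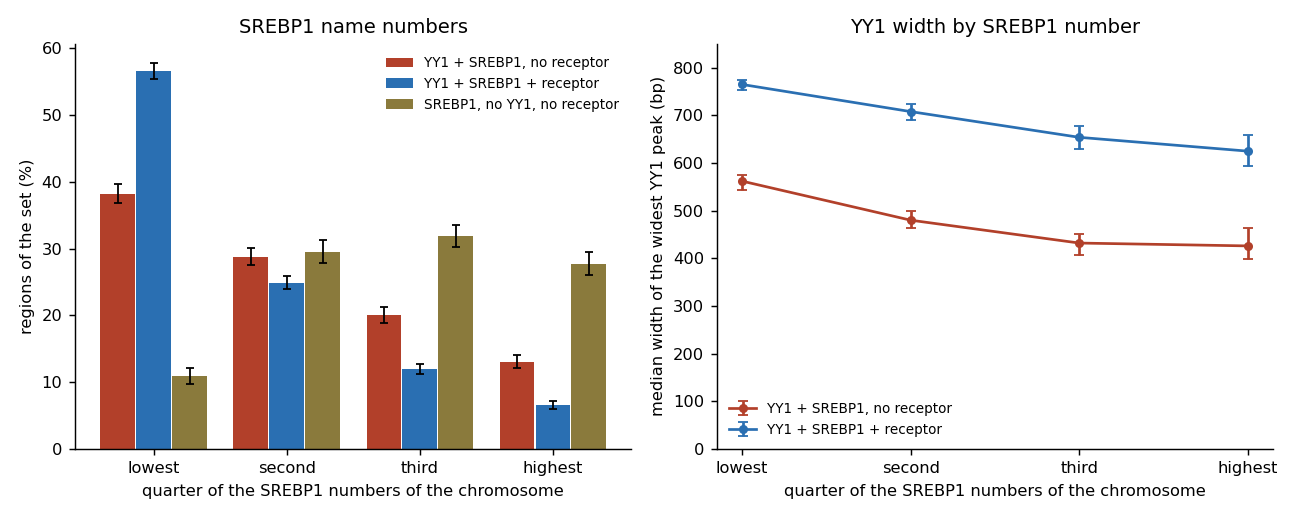
Left, share of each set (bars, percent, 95% Wilson intervals) whose lowest-numbered SREBP1 peak falls in each of 4 equal parts of the numbers of its chromosome. Right, median width of the widest YY1 peak in bp by the same parts, with order-statistic intervals. Receptor-free regions fall from 38.2% to 13.0% on the left and from 562 to 426 bp on the right, below regions with a receptor in every part on the right.

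Receptor peaks lay about as near to these regions as to other acetylated regions without one. An NR2F2 or RXRG peak lay within 10 kb of 49.7% of them (48.2 to 51.1%), against 50.5% of all H3K27ac peaks without a receptor inside. The median distance to the nearest receptor peak was 10.1 kb (9.69 to 10.6 kb), against 9.80 kb for YY1 regions without SREBP1 and 9.84 kb for those with SREBP1 and no YY1. The nearest RXRG peak was at a median of 14.1 kb and the nearest NR2F2 peak at 20.4 kb, against 14.3 and 19.4 kb for all H3K27ac peaks without a receptor. The difference from YY1 regions without SREBP1 in the share within 10 kb was -1.03 points (-2.80 to 0.751), and its interval holds 0. The receptor-free regions stood somewhat further from other acetylation, with a median gap of 6275 bp (6121 to 6433 bp) to the nearest H3K27ac peak, against 4995 bp (4923 to 5076 bp) for YY1 regions without SREBP1 or a receptor. With neighbouring H3K27ac peaks no more than 10 kb apart joined into groups, 26.5% (25.2 to 27.8%) were alone in their group, against 20.3% of those YY1 regions and 23.3% of all H3K27ac peaks without a receptor. In 46.6% (45.2 to 48.1%) the group held a receptor at another peak, close to the 47.4% of all H3K27ac peaks without a receptor.

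Chromosomes differed in the share of YY1 and SREBP1 regions that lacked a receptor. It was lowest on chromosome 19, at 29.4% (24.9 to 34.4%, 103 of 350), followed by chromosome 7 with 31.1% and chromosome 9 with 31.3%. It was highest on X, at 55.7% (49.4 to 61.8%, 137 of 246), followed by chromosome 18 with 51.7% and chromosome 17 with 50.1%. Over all acetylated regions with YY1, chromosomes 7, 9 and 19 were also the lowest, at 38.2%, 38.9% and 39.9%. Chromosomes 18 and 17 were high there too, at 50.3% and 52.2%, but X was not. On 19 of 21 chromosomes the share in YY1 and SREBP1 regions was below that of all acetylated regions with YY1. Chromosome 18 and X were the exceptions. On X, regions without a receptor made up 50.5% of all H3K27ac peaks, the lowest value of any chromosome, and 40.9% of those with YY1, but 55.7% of those with YY1 and SREBP1. TEAD1 in the receptor-free regions was also lowest on X, at 31.4% (24.2 to 39.6%), and highest on chromosome 2, at 63.9% (58.5 to 68.9%). In all acetylated regions with YY1 it was 39.2% on X and 60.7% on chromosome 2. The median H3K27ac width of the receptor-free regions was 1039 bp on X and 1458 bp on chromosome 2, while the YY1 width was 499 and 488 bp. These extremes were picked from 21 chromosomes after their values were seen.

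**Figure D5:**
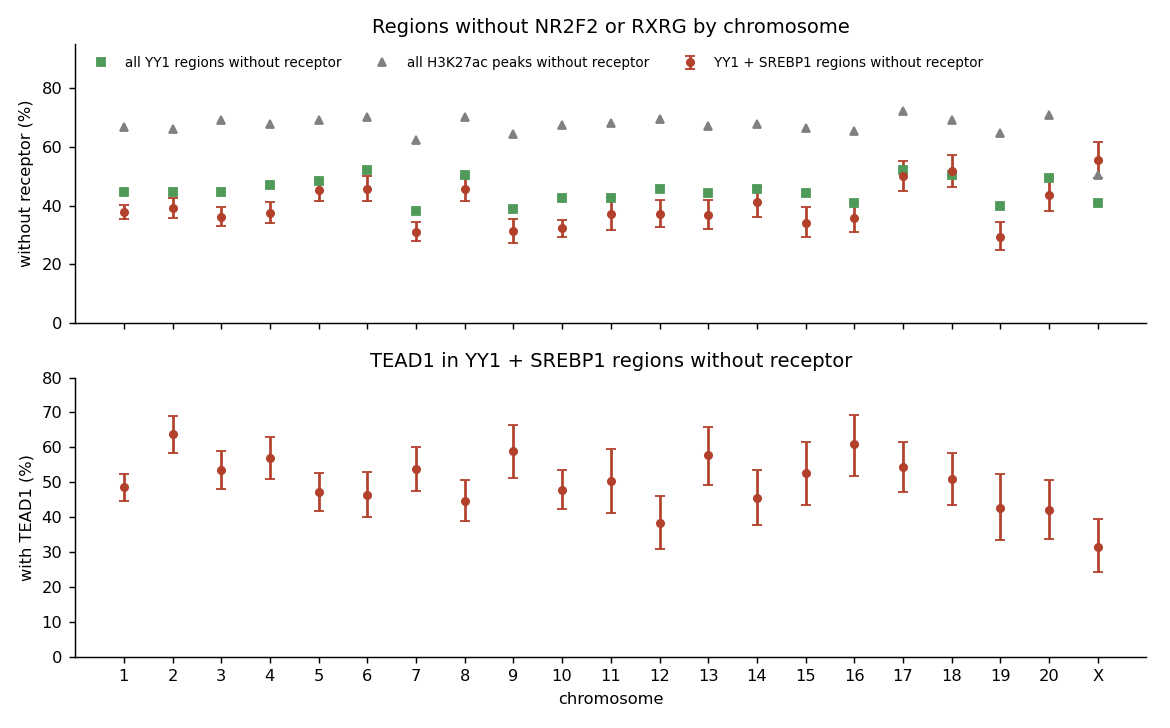
Top, percentage of regions without NR2F2 or RXRG on each chromosome, for YY1 and SREBP1 regions (circles, 95% Wilson intervals), all YY1 regions (squares) and all H3K27ac peaks (triangles). Bottom, percentage of the receptor-free YY1 and SREBP1 regions with TEAD1, with 95% Wilson intervals. X has the highest circle in the upper panel (55.7%) and the lowest share of TEAD1 in the lower one (31.4%).

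The widest regions show how varied the arrangement was. The widest was chr5:159583296-159589873 (6578 bp), which held 2 YY1 peaks and no TEAD1. Its SREBP1 peak, at 159588946 to 159589430, lay near one end, and the nearest receptor, an NR2F2 peak, was 3.36 kb away. The widest with TEAD1 was chr19:36274642-36280496 (5855 bp), with 4 YY1 peaks, the only region with that many, and 2 TEAD1 peaks. Its widest YY1 peak (1038 bp) met the SREBP1 peak at one edge of the region. The next with TEAD1, chr15:23919991-23925294 (5304 bp), had 1 peak each of YY1, SREBP1 and TEAD1, with the YY1 peak (23923004 to 23924086) and the SREBP1 peak (23923142 to 23923626) wholly inside the region. Without TEAD1, chr8:124664736-124668760 (4025 bp) had YY1 and SREBP1 midpoints 40 bp apart and its nearest receptor peak 113.284 kb away.

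The widest YY1 peaks were likewise mixed. The widest, 1950 bp, was at 105163873 to 105165822 in chr10:105162120-105165542, a region with 2 YY1 and 2 SREBP1 peaks and with TEAD1. The next, 1798 bp, lay in chr10:88882380-88884498 and had no TEAD1, with an RXRG peak 1.23 kb outside. In chr5:147640954-147642746 a YY1 peak of 1612 bp met 1 SREBP1 peak, with an NR2F2 peak 338 bp outside the region. Among the regions with 2 SREBP1 peaks, the widest was chr6:146148969-146153451 (4483 bp), with 3 YY1 and 2 TEAD1 peaks. The most TEAD1 peaks, 4, were in chr19:65751230-65755477.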

How the data were processed

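The 6 deposited peak lists give positions on rn5, and the SREBP1 list also a name and a score, which the authors deposited as 1 in every peak. Per the submitters' processing notes, bcl2fastq 2.20.0.422, Bowtie2, MACS2, bedtools and deepTools were used, without roles or settings. The sources used here give no thresholds, controls or other versions, and thresholds set which regions count as receptor-free. Mitochondrial peaks were dropped. Overlap of at least 1 bp counted as shared. Intervals at 95% are Wilson for shares, Newcombe for differences and order statistics for medians. Weighted differences carry a normal interval. They treat regions as independent. The rule, sets and measures were chosen with earlier results of these data known. Alternatives were 50% overlap, the midpoint rule, no receptor within 500 bp, wider YY1 peaks, joining within 1 kb and placed chromosomes. Weighting by width was added later. Named regions are the top of fixed lists: widest with and without TEAD1, widest YY1 peak, most SREBP1 peaks, and the stitched groups with most receptor-free regions. Planned analyses of motifs, base composition and gene starts needed an rn5 genome and were not run. Scripts were tested on simulated data and checked against bedtools 2.31.1. Python 3.11.15, NumPy 2.4.6, pandas 2.3.3, SciPy 1.17.1 and Matplotlib 3.10.9 were used.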

Additional observations from a re-analysis of the deposited data

How the results depend on the processing

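The 13 results were recomputed under 90 alternatives, 78 planned and 12 added after the data were seen. Of the planned values, 51 stayed inside the interval of the original (for the number of regions, within 1.5 times), 26 moved outside it and 1 changed sign. Of the added ones, 4 stayed, 4 moved and 4 changed sign. Of the 51, 13 come from placed chromosomes only, which could change nothing because all regions lie there, and 13 from joining within 1 kb, which hardly acts because gaps are never under 925 bp (4554 regions). No receptor within 500 bp (4476 regions) also moved none of the 13. It could change little, because only 67 of the 4543 regions had a receptor peak that near. With 50% overlap, the share without a receptor among YY1 and SREBP1 regions was 39.9%, H3K27ac width 1356 bp, YY1 width 510 bp, direct overlap 87.8%, midpoint distance 190.5 bp, and the differences were -17.6 points (TEAD1, from regions with a receptor), 6.92 (TEAD1, from YY1 regions without SREBP1), -6.74 (direct overlap) and -20.3 (lowest SREBP1 numbers). With the midpoint rule, the share was 39.6%, H3K27ac width 1366 bp, YY1 width 511 bp, direct overlap 87.7%, midpoint distance 190.75 bp, the TEAD1 difference from YY1 regions 7.18 points and the direct overlap difference -6.82. With YY1 peaks wider than their median, 2638 regions met the rule, 29.4% of those with both factors, with TEAD1 in 60.5%, H3K27ac width 1358.5 bp, YY1 width 641 bp, direct overlap 90.2% and lowest SREBP1 numbers in 44.4%. The differences from regions with a receptor were then -8.86 points for TEAD1, -1.30 for direct overlap and -14.8 for SREBP1 numbers, and the TEAD1 difference from YY1 regions turned to -4.90. With YY1 width weighted, the differences from regions with a receptor were -4.14 (TEAD1), 0.244 (direct overlap) and -9.47 (SREBP1 numbers), and that from YY1 regions -3.57. With both widths weighted they were -5.43, 0.300, -8.72 and -3.20. The cause was not tested. No paired analysis was possible because every target has a single library. Depth is unknown, and its effect was not tested.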

Other observations

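With H3K27ac peaks grouped over gaps of at most 10 kb, 3703 groups held 1 receptor-free region with YY1 and SREBP1, 348 held 2, 35 held 3, 6 held 4 and 3 held 5. Most of these regions shared their group with other H3K27ac peaks, and 26.5% were alone in it. The groups with 5 receptor-free regions were chr1:50996115-51190468 (32 H3K27ac peaks), chr1:221233921-221392363 (24 peaks) and chr8:47020056-47101464 (12 peaks). In each of them other peaks held a receptor, 6, 6 and 4 in that order. In the chromosome 8 group, 3 of the 5 regions held TEAD1, and chr8:47024145-47027377 had an RXRG peak 1.77 kb outside. In the second chromosome 1 group, chr1:221270689-221275661 (4973 bp) had its YY1 and SREBP1 midpoints 95.5 bp apart and its nearest receptor peak 16.6 kb away. No explanation was tested for these groups.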
